A study of Mus musculus with 14 samples.

Results

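The genes described here are 8 mouse genes used as marks of the embryonic stem cell state, Dppa2, Dppa4, Dppa3, Dppa5a, Lin28a, Lin28b, Utf1 and Tdgf1. They were taken by name, not by any measured value, out of 21883 protein-coding genes with RefSeq coordinates on GRCm38.p6, the assembly behind mm10. Around each gene, all listed regions within the gene and 20 kb beyond either end were collected from 7 lists of chromatin immunoprecipitation sequencing (ChIP-seq) regions. The cells were E14 mouse embryonic stem cells, grown on gelatin in a serum-containing 2i medium with LIF. They were given 1 µM doxorubicin, which traps topoisomerase II on broken DNA, or the solvent DMSO as vehicle for 6 h, followed by 6 h of washout, with harvest 12 h after the start. The 7 groups of 2 libraries were H3K27ac after vehicle, H3K27ac after doxorubicin, H3K9me3 after vehicle, H3K9me3 after doxorubicin, HA ChIP of tagged p53, HA ChIP of cells without the tag, and input from doxorubicin-treated cells. For the HA groups the titles do not name the treatment, and the sources used here do not say how the tag was introduced.

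Dppa2 and Dppa4 are neighbouring genes on chromosome 16 whose SAP-domain proteins form a pair that binds chromatin and activates Dux, the factor that drives the 2-cell-like state of embryonic stem cells. Dppa3, also called Stella or PGC7, is a maternal and germ cell protein that guards DNA methylation patterns through its action on Uhrf1. Dppa5a encodes a small KH-domain RNA-binding protein of pluripotent cells. Lin28a and Lin28b encode RNA-binding proteins that block maturation of let-7 microRNAs. Utf1 encodes a chromatin-associated factor of pluripotent cells, and Tdgf1, also called Cripto, encodes a co-receptor for Nodal. H3K27ac marks active enhancers and promoters, H3K9me3 marks heterochromatin, and p53 is the transcription factor stabilised by DNA damage.

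Promoter sequences are shown for the 4 of the 8 genes with an entry in the RefSeq promoter table of GRCm38.p6, because the H3K27ac lists separate them. A listed H3K27ac region overlapped these bases in both treatments at Utf1 and Tdgf1 and in neither treatment at Lin28a and Lin28b. No H3K9me3, p53, untagged or input region overlapped any of the 4. Each line gives the 250 bases before the annotated start, 5′ to 3′ on the strand of the gene. Capitals mark matches on either strand to the motifs searched, which were CATG, the core of the p53 site, ATGCAAAT, the octamer, GGGCGG, the GC box, and TATAAA. The motifs were searched separately, and overlapping matches of a motif were each counted.
Utf1, chr7:139943606-139943855, plus strand: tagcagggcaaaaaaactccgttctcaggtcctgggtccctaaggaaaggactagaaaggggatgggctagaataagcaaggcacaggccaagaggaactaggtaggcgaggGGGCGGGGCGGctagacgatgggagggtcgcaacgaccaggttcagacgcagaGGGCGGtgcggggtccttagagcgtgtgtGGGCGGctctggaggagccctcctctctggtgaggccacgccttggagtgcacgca
Tdgf1, chr9:110946159-110946408, minus strand: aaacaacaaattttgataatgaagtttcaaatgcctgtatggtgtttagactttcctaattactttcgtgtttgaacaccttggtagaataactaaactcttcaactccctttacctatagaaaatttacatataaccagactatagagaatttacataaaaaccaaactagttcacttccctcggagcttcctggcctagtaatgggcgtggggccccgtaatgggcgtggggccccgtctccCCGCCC
Lin28a, chr4:134018817-134019066, minus strand: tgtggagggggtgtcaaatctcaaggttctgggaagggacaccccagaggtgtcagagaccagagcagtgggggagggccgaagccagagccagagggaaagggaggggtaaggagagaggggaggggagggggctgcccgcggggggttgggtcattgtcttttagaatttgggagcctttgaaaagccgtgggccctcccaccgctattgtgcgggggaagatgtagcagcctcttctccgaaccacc
Lin28b, chr10:45470202-45470451, minus strand: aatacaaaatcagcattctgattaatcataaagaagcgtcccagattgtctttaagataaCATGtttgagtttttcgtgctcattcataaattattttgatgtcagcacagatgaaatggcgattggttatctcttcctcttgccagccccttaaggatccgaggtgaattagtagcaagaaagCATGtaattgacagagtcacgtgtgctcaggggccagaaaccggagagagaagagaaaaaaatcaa

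The Utf1 promoter held 4 matches to the GC box and the Tdgf1 promoter 1, on the opposite strand and next to the start. The Lin28b promoter held 2 matches to CATG, and the Lin28a promoter held none of the 4 motifs. Among 27025 promoters of the same length, 32.9% held GGGCGG, 54.1% CATG, 12.97% TATAAA and 1.61% ATGCAAAT. G and C made up 61.6% of the Utf1 bases and 61.2% of those of Lin28a, against 42.0% at Tdgf1 and 39.2% at Lin28b. The Utf1 promoter had 14 CpG, while Tdgf1 and Lin28a had 7 each and Lin28b had 6. Both pairs, the one with H3K27ac and the one without, held 1 promoter rich and 1 poor in G and C. Such matches describe letters in these windows and are not evidence of binding.

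Each list was called by the authors on both libraries of a group together, so no value has a replicate error and no test was possible. Levels are the highest summit of the fragment pileup in a window, in fragments per 1000000 fragments kept in that list (FPM). Their intervals are 95% counting intervals and do not include the spread between cultures. As the highest summit is picked from many positions, these intervals are too narrow in that respect. A gene that is not listed has no summit past the threshold of the caller, which is not the same as no signal. Fragments kept numbered 20647895 for H3K27ac after vehicle, 17036528 for H3K27ac after doxorubicin, and 15992125 and 14402634 for H3K9me3. The p53 list rested on 45238471 fragments, the untagged list on 49588950 and the input list on 16583331. The lowest listed summits were 0.436 and 0.470 FPM for H3K27ac after vehicle and doxorubicin, and 0.500 and 0.486 for H3K9me3. The stem cell label was checked with H3K27ac at 6 embryonic stem cell markers, all 6 of which were listed, with a median of 6.27 after vehicle and 3.52 after doxorubicin. Fibroblast markers were listed at 5 of 13 after vehicle, from 0.630 to 4.75, and 9 of 13 after doxorubicin, from 0.470 to 2.70, while Col1a2, Col3a1, Dcn and Lum were listed in neither. Markers of extraembryonic endoderm and trophoblast were listed at 7 of 11 in each treatment, up to 1.31 after vehicle and 1.58 after doxorubicin. In wider lists of 15 markers each, fibroblast markers were listed at 6 after vehicle and 11 after doxorubicin. Extraembryonic markers of the wider list were listed at 11 in each treatment, up to 1.45 after vehicle and 1.70 after doxorubicin. Whether a share of other cells moved with the values below was not tested.

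Across the gene and 1 kb beyond either end, the 8 genes spanned nearly the whole range of H3K27ac heights. After vehicle the order was Tdgf1 with 7.22 FPM (6.10 to 8.47), Dppa5a with 4.89 (3.98 to 5.94), Utf1 with 1.55 (1.06 to 2.19), Lin28a with 1.07 (0.668 to 1.61), Dppa2 with 1.02 (0.630 to 1.56) and Dppa3 with 0.630 (0.335 to 1.08). Dppa4 and Lin28b were not listed. Listed were thus 6 of the 8 after vehicle and 7 of the 8 after doxorubicin, beside 64.2% and 69.9% of all protein-coding genes. Among genes listed after vehicle, Tdgf1 lay at percentile 98.5 and Dppa5a at 93.8, Utf1 near the middle at 52.6, Lin28a and Dppa2 at 34.0 and 31.9, and Dppa3 at 8.82. Counting intervals separated Tdgf1 from Dppa5a and Dppa5a from Utf1. From Utf1 to Dppa3, the intervals of neighbours in this order overlapped. Summit height is not a sum over the gene, but a long gene offers more positions from which the highest is taken.

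**Figure D1:**
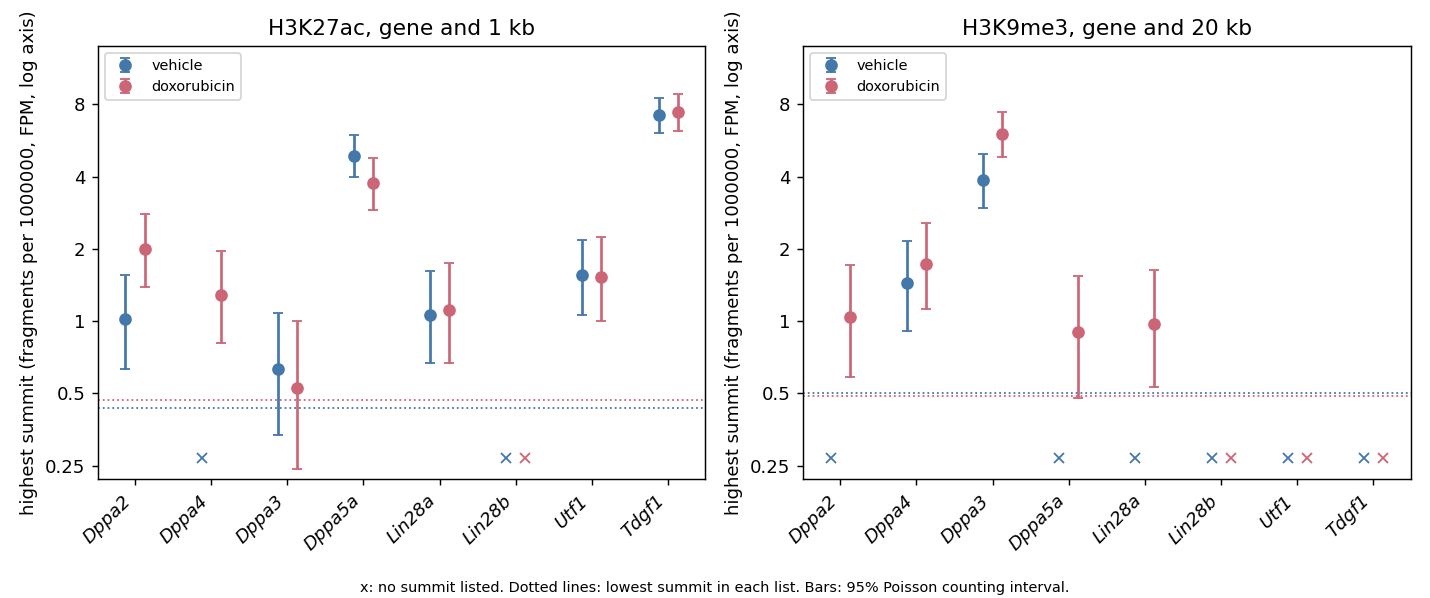
Highest summit of H3K27ac in the gene and 1 kb (left) and of H3K9me3 in the gene and 20 kb (right) at the 8 genes, in FPM on a log axis, after vehicle (blue) and doxorubicin (red), with 95% Poisson counting intervals. Crosses mark genes without a listed summit and dotted lines the lowest summit of each list. Tdgf1 and Dppa5a stand above the other genes in H3K27ac, and Dppa3 above the others in H3K9me3.

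Between treatments, 2 of the 8 genes were called higher in H3K27ac after doxorubicin, Dppa2 by a ratio of at least 1.5 and Dppa4 by being listed after doxorubicin alone. Of all protein-coding genes, 14.6% had a ratio of at least 1.5 and 8.25% were listed after doxorubicin alone. None of the 8 was lower by 1.5 or listed after vehicle alone, where the shares of all genes were 6.13% and 2.57%. The remaining 5 listed genes had ratios between these limits, and Lin28b was listed in neither treatment. Over the 6 genes listed in both, the median log2 ratio was 0.01, beside 0.11 over 13480 such genes. The highest ratio, at Dppa2, had a counting interval above 1, and the other 5 intervals included 1.

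**Figure D2:**
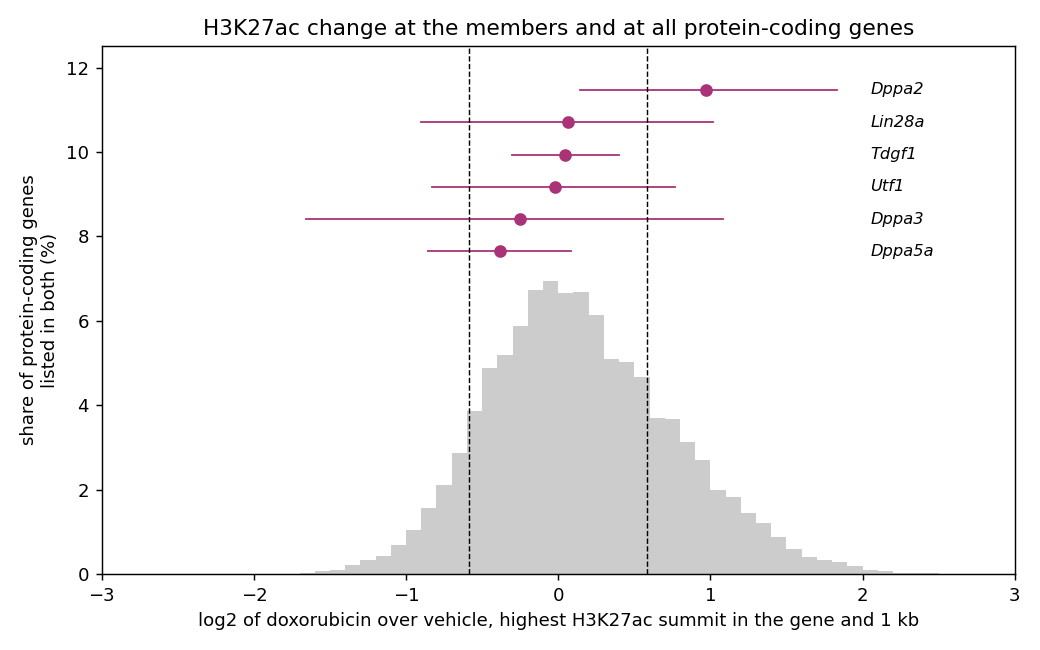
Log2 ratio of doxorubicin over vehicle for the highest H3K27ac summit in the gene and 1 kb, for the 6 genes listed in both treatments (points, with 95% counting intervals) above the distribution over 13480 protein-coding genes (grey, percent of genes per bin). Dashed lines mark the ratio of 1.5 in either direction. Dppa2 lies past the upper line, and the other 5 points lie between the lines.

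Dppa2 and Dppa4, the pair that activates Dux, lie side by side on chromosome 16. At Dppa2 (chromosome 16, 48310274 to 48319513), H3K27ac reached 1.02 FPM after vehicle, a summit of 21 fragments, and 2.00 after doxorubicin, a summit of 34 fragments. The ratio was 1.96 (1.11 to 3.56). The 2 summits did not lie in the same place. The vehicle maximum was within the gene, in a locus from 48310848 to 48312237 where doxorubicin gave 0.822. The doxorubicin maximum lay across the upper end of the gene, in a locus from 48319496 to 48321003, which rose from 0.823 to 2.00, a ratio of 2.42 (1.32 to 4.63). Within the gene body alone the ratio was 0.866, so the higher call at Dppa2 rests on the regions at its upper end.

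At Dppa4 (chromosome 16, 48283735 to 48294292) no H3K27ac summit was listed after vehicle in the gene and 1 kb. After doxorubicin the list held a region from 48285792 to 48286344 within the gene with 1.29 FPM (0.809 to 1.96), and one from 48292980 to 48293765 near the upper end with 0.880. Read as 1 stretch of chromosome 16, the windows of Dppa4 and Dppa2 held 15 H3K27ac loci, where a locus joins overlapping regions of both treatments. Of these, 8 were listed in both treatments, 7 after doxorubicin alone and 0 after vehicle alone. Over the genome 40.3% of 129183 loci were listed after doxorubicin alone and 18.3% after vehicle alone. The doxorubicin-only loci of the pair had 0.704 to 1.29 FPM. The median region of the doxorubicin list had 0.763, and the lowest listed vehicle summit was 0.436. Between the genes, some loci were listed in both treatments and others after doxorubicin alone. An example of the first is 48307763 to 48310130, just below Dppa2, with 0.920 and 0.939. An example of the second is 48297609 to 48298334, with 0.880 after doxorubicin.

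**Figure D3:**
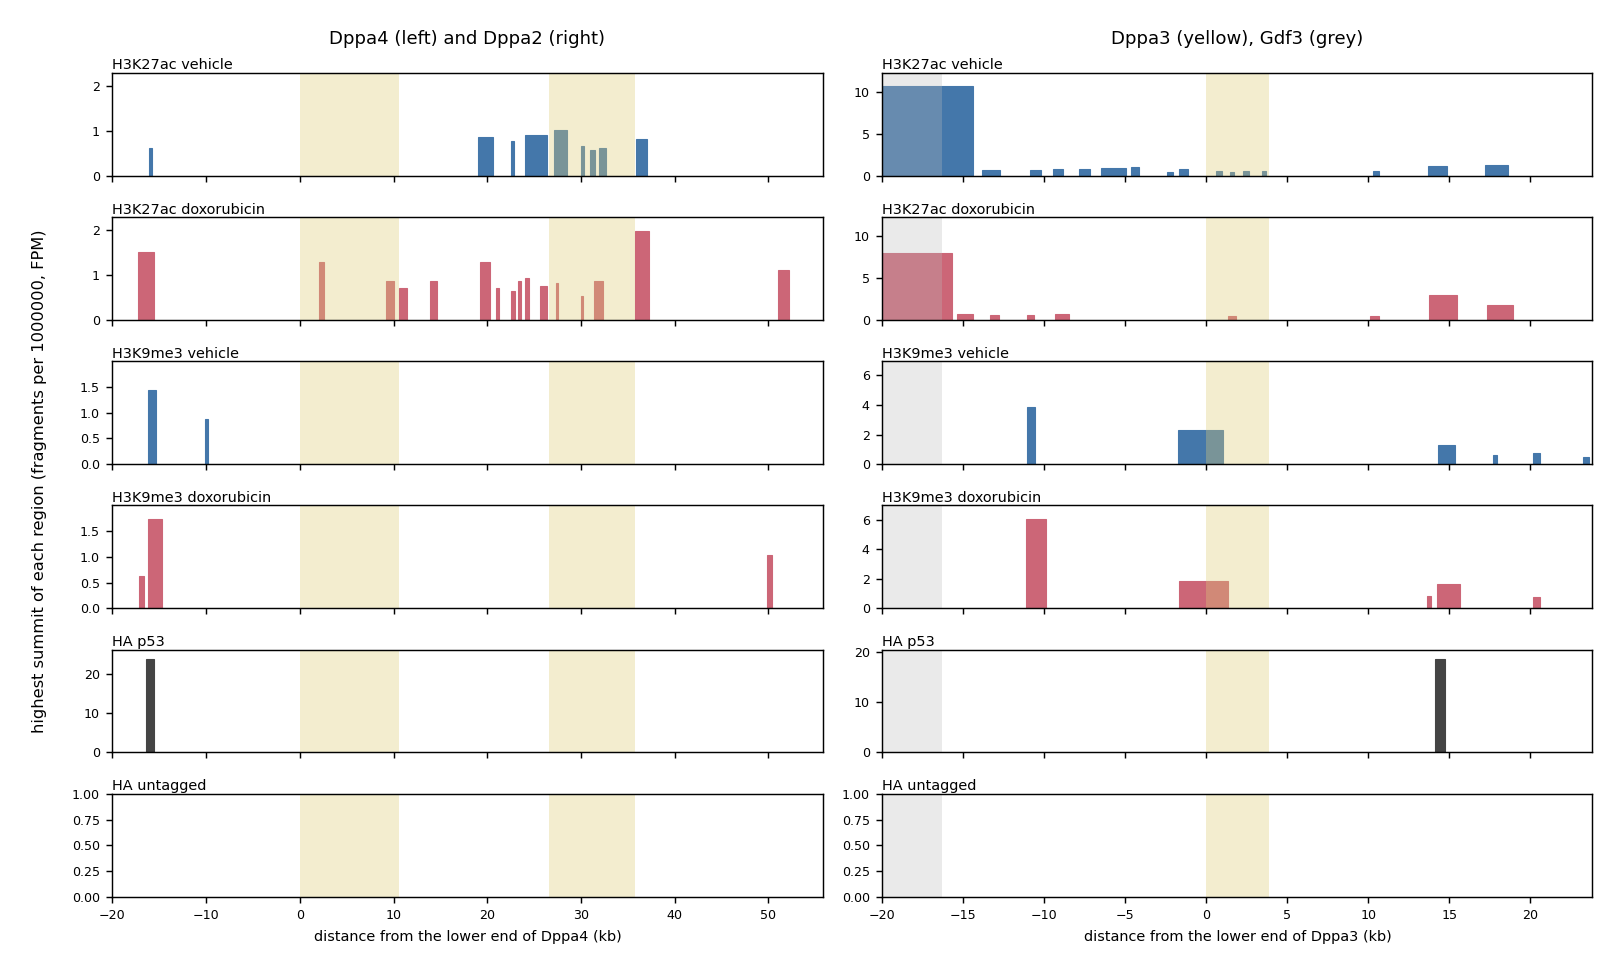
Listed regions around Dppa4 and Dppa2 (left) and Dppa3 (right), by list, drawn to scale against the distance in kb from the lower end of Dppa4 or Dppa3, with the height of the highest summit in FPM on linear axes that differ between lists. Yellow bands mark the genes and the grey band Gdf3, and regions that cross the plotted window are clipped. The bars over Dppa4 are present after doxorubicin and absent after vehicle, while the low bars between Gdf3 and Dppa3 thin out after doxorubicin.

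Dppa3 (chromosome 6, 122626424 to 122630271) had the lowest H3K27ac of the listed genes, 0.630 FPM after vehicle and 0.528 after doxorubicin, 13 and 9 fragments, with a ratio of 0.839 (0.317 to 2.12). The vehicle and doxorubicin summits did not lie in the same place. The locus within the gene listed in both treatments, from 122627783 to 122628260, had 0.484 and 0.528. The ratio there was 1.09 (0.392 to 2.99), on the other side of 1. The Dppa3 window differed from those of Dppa4 and Dppa2 in the loci listed in 1 treatment alone. Of 16 H3K27ac loci in its 20 kb window, 8 were listed in both treatments, 8 after vehicle alone and 0 after doxorubicin alone. Among loci listed in both, the median ratio was 0.889 at Dppa3, beside 0.927 at Dppa4 and 1.02 at Dppa2. The highest ratio in the Dppa3 window was 2.69, at the locus that overlaps a p53 region. The vehicle-only loci had 0.436 to 1.02 FPM, beside a lowest listed doxorubicin summit of 0.470. Loci of 1 window share a neighbourhood and are not independent, and no test was made of the difference between the windows. The strongest H3K27ac region there was not at Dppa3 but over Gdf3, which encodes a TGF-beta family ligand. It reached 10.6 FPM after vehicle and 7.98 after doxorubicin, a ratio of 0.753 (0.603 to 0.936), and was 7.374 kb long after vehicle and 5.414 kb after doxorubicin.

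Dppa5a (chromosome 9, 78367052 to 78368199) lay inside one of the longest H3K27ac regions of the genome. After vehicle the region ran from 78357839 to 78380390, 22.6 kb with 37 summits, and ranked 16 in length among 82177 regions. After doxorubicin it ran from 78359425 to 78379693, 20.3 kb with 32 summits, and ranked 18 among 112259. It also covered Ooep, an oocyte-expressed gene. Within 1 kb of Dppa5a the highest summit was 4.89 after vehicle and 3.76 after doxorubicin, 101 and 64 fragments, with a ratio of 0.768 (0.553 to 1.06). Over the whole region the highest summit was 6.44 after vehicle and 4.28 after doxorubicin, a ratio of 0.665 (0.493 to 0.892), and the median of its summits was 3.15 and 2.23. The region was thus lower after doxorubicin at its maximum, and at the gene itself the interval reached past 1. The rest of the window held 9 small loci, of which 6 were listed after vehicle alone and 2 after doxorubicin alone.

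Tdgf1 (chromosome 9, 110939608 to 110946158) had the highest H3K27ac of the 8 genes in both treatments. Within 1 kb it reached 7.22 after vehicle and 7.45 after doxorubicin, 149 and 127 fragments, with a ratio of 1.03 (0.809 to 1.32). The region began inside the gene, covered the promoter printed above and ran beyond the start into Lrrc2, a neighbouring gene of a leucine-rich repeat protein. It was 13.6 kb long after vehicle, from 110943150 to 110956705, and 13.5 kb after doxorubicin, from 110943069 to 110956547. Its highest summit was 8.77 after vehicle and 7.45 after doxorubicin, a ratio of 0.850 (0.672 to 1.07), and the median of its summits was 2.54 and 2.23. A second region within Lrrc2, from 110957840 to 110963148 after vehicle, had 4.50 and 3.70 FPM. In the gene body without its flanks the Tdgf1 ratio was 0.787. Tdgf1 thus kept a height near the top of both lists, at percentiles 98.5 and 98.4.

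**Figure D4:**
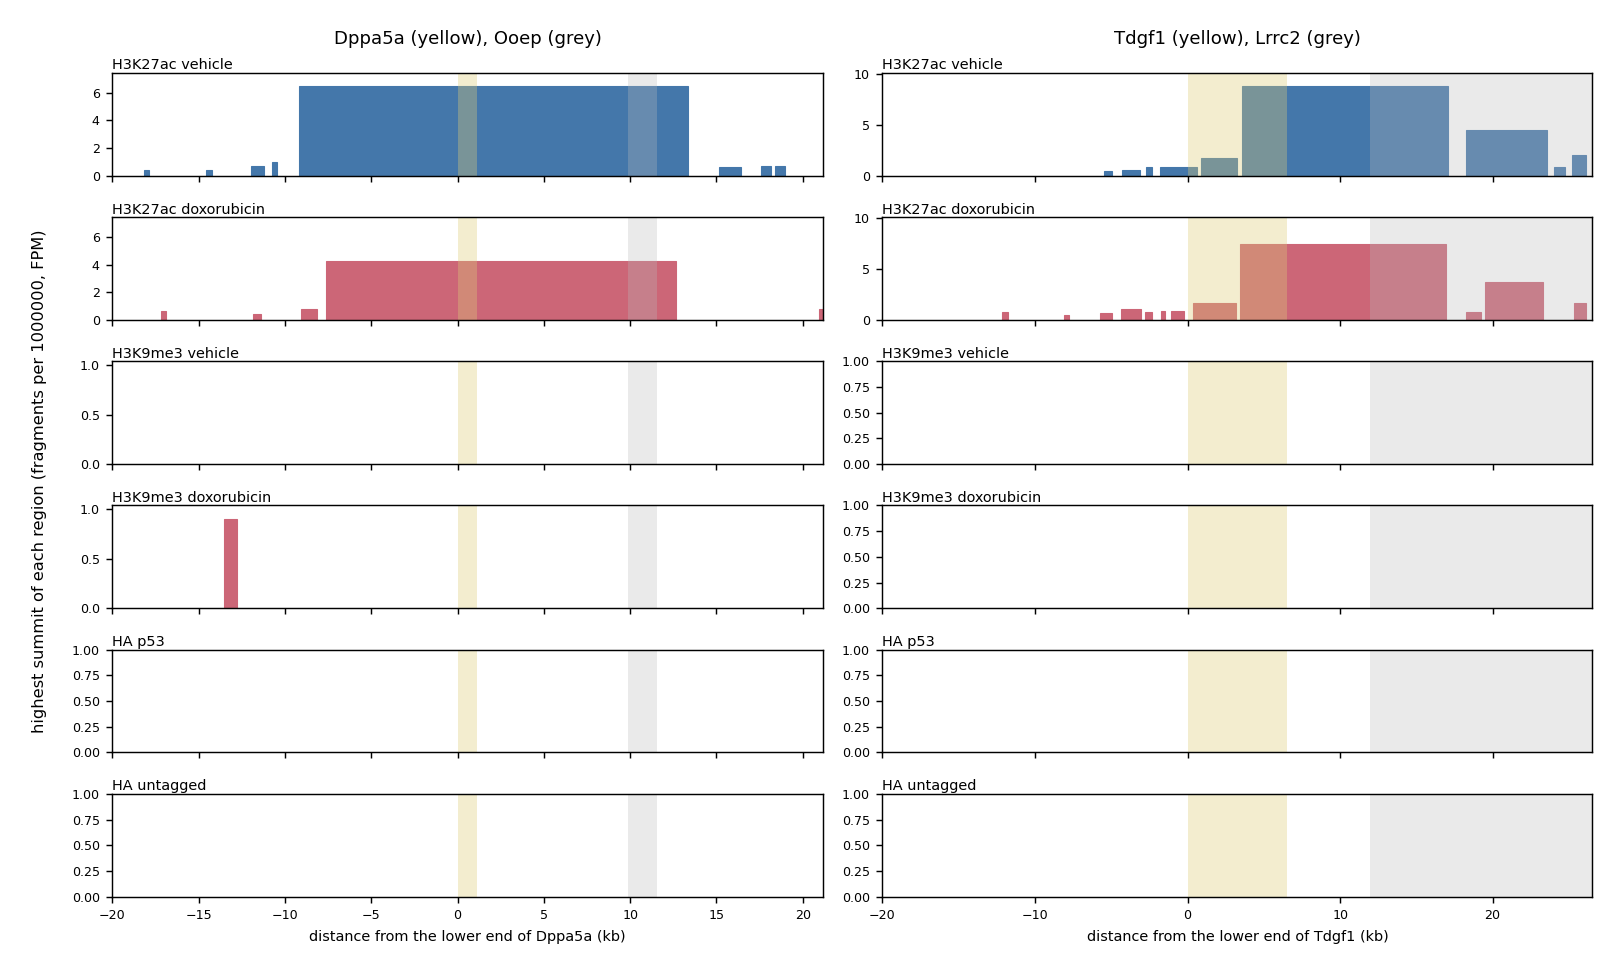
Listed regions around Dppa5a (left) and Tdgf1 (right), by list, drawn to scale against the distance in kb from the lower end of the gene, with the height of the highest summit in FPM on linear axes that differ between lists. Yellow bands mark the 2 genes and grey bands Ooep and Lrrc2. Each gene lies in or at a broad H3K27ac region in both treatments, of 22.6 and 20.3 kb at Dppa5a and of 13.6 and 13.5 kb at Tdgf1, and neither window holds a p53 or untagged region.

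Utf1 (chromosome 7, 139943856 to 139945112) lay within a single H3K27ac region in each treatment that also covered part of its GC-box-rich promoter. The highest summit of that region was 1.55 FPM after vehicle and 1.53 after doxorubicin, 32 and 26 fragments, with a ratio of 0.985 (0.564 to 1.71). The vehicle summit lay 929 bp above the upper end of the gene and the doxorubicin summit within the gene. Close to the vehicle summit, doxorubicin gave 1.47 in a separate region. Of the 10 H3K27ac loci in the 20 kb window, 4 were listed in both treatments, 3 after doxorubicin alone and 3 after vehicle alone. A locus from 139949506 to 139950999, at an end of the long non-coding RNA gene Gm16201, had 1.11 after vehicle and 0.646 after doxorubicin, a ratio of 0.580 (0.255 to 1.24). An untagged HA region overlapped that locus, from 139950054 to 139950537, with 2.78 FPM of the input and a fold enrichment over input of 7.74 given by the authors. The p53 list held no region within 20 kb of Utf1.

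Lin28a (chromosome 4, 134003330 to 134019196) carried H3K27ac inside the gene, away from the promoter bases printed above. The highest summit lay in a locus from 134010755 to 134012750, with 1.07 FPM after vehicle and 1.12 after doxorubicin, 22 and 19 fragments, and a ratio of 1.05 (0.536 to 2.03). A locus from 134017028 to 134017830 had 0.630 and 0.646. A small locus nearer the start, from 134018250 to 134018600, was listed after vehicle alone with 0.484, close to the lowest listed summits. Lin28b (chromosome 10, 45376617 to 45486314) is the longest of the 8 genes and had no listed H3K27ac region over its whole length in either treatment. The window held 3 H3K27ac regions after doxorubicin alone, from 0.587 to 0.763 FPM. All 3 lay below the gene, beside or in Bves, which encodes a membrane protein of muscle and epithelium. An untagged HA region lay inside Lin28b from 45473643 to 45473936, with 1.33 FPM of the input. The 2 paralogues differed in listing, with Lin28a listed in both treatments and Lin28b in neither.

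Over the 8 windows together, 69 H3K27ac loci were found, of which 18 (26.1%) were listed after doxorubicin alone and 19 (27.5%) after vehicle alone. Over all 129183 loci these shares were 40.3% and 18.3%. In the windows, a further 4 of the 69 (5.80%) were higher by at least 1.5 and 3 (4.35%) lower, beside 10.7% and 4.39% of all loci. In the 32 loci listed in both, the median ratio was 0.935, beside 1.12 over all 53498 such loci. The counting interval lay above 1 at 3 loci and below 1 at 2. The 3 above were the upper end of Dppa2 and the loci at the p53 regions of the Dppa4 and Dppa3 windows. The 2 below were the broad region over Dppa5a and the region over Gdf3.

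A p53 region lay within 20 kb of 2 of the 8 genes, Dppa4 and Dppa3, while 32.3% of all protein-coding genes had one. The region near Dppa4 ran from 48267340 to 48268136 on chromosome 16, 15.6 kb below the gene and 42.1 kb from Dppa2. Its summit was 23.9 FPM of the input, and its fold enrichment of 69.9, as given by the authors, ranked 398 among 11282 p53 regions. The region near Dppa3 ran from 122640569 to 122641154 on chromosome 6, 10.3 kb above the gene and beside the small nucleolar RNA gene LOC115490479. Its summit was 18.7 FPM and its fold enrichment of 37.0 ranked 1054. Neither region overlapped an untagged or input region. An untagged region lay within 20 kb of Lin28b and Utf1, 2 of the 8, against 7.49% of all genes. An input region lay within 20 kb of 0 of the 8, against 2.57%. The untagged list was called with another background setting than the p53 list, so the numbers of regions in them are not compared.

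For the 5 remaining genes the nearest p53 region was farther away and weaker. It lay 46.3 kb from Dppa5a with a fold enrichment of 5.35, 49.0 kb from Utf1 with 10.95, 92.7 kb from Lin28a with 4.81, 103 kb from Tdgf1 with 3.78 and 314 kb from Lin28b with 8.55. None of the 8 genes had a p53 region within 1 kb, where 17.1% of all protein-coding genes had one.

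At both p53 regions H3K27ac was listed in both treatments and was higher after doxorubicin. The locus in the Dppa4 window had 0.630 FPM after vehicle and 1.53 after doxorubicin, 13 and 26 fragments, a ratio of 2.42 (1.20 to 5.14). The locus in the Dppa3 window had 1.11 and 2.99, 23 and 51 fragments, a ratio of 2.69 (1.61 to 4.61). These ratios lay at percentiles 94.3 and 96.5 of all loci listed in both treatments, but at 68.4 and 79.2 of the loci at p53 regions. Of 4822 H3K27ac loci at a p53 region and listed in both treatments, 74.4% were higher by at least 1.5, the median ratio was 1.98, and the quartiles ran from 1.48 to 2.56. Away from p53 regions the median was 1.08. The 2 loci therefore moved as most p53 loci did. H3K9me3 was listed at the same places, with 1.44 and 1.74 in the Dppa4 window, a ratio of 1.21 (0.657 to 2.23), and 1.31 and 1.67 in the Dppa3 window, a ratio of 1.27 (0.677 to 2.40). Whether the 2 marks sat on the same molecules or in different cells cannot be told apart in pooled lists.

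**Figure D5:**
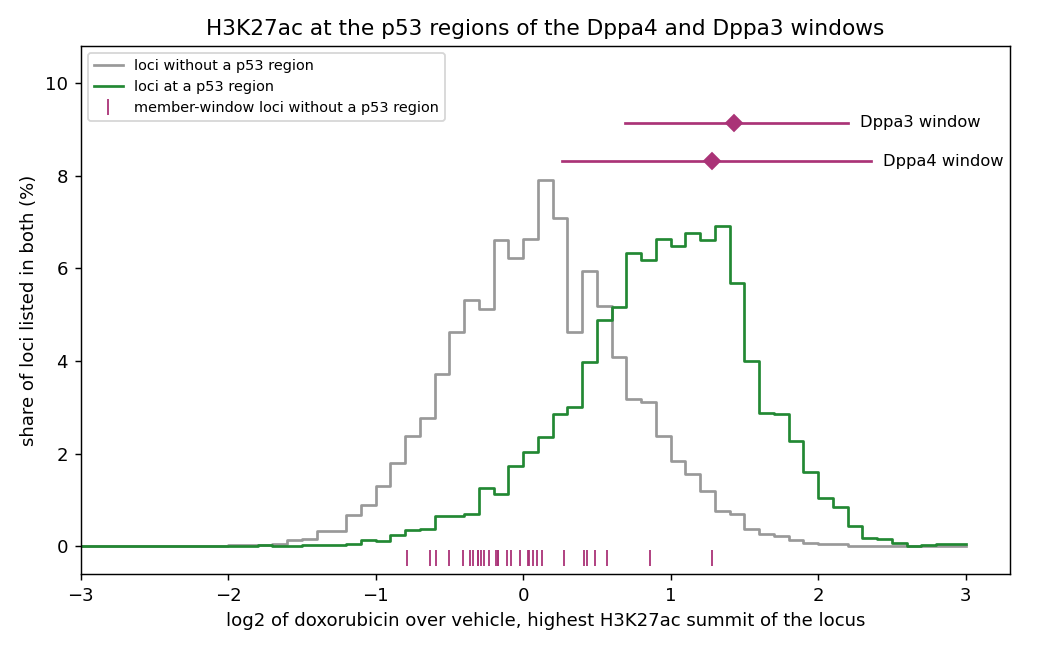
Log2 ratio of doxorubicin over vehicle for the highest H3K27ac summit of each locus listed in both treatments, as percent of loci per bin, for loci at a p53 region (green) and without one (grey). Diamonds with 95% counting intervals are the loci at the p53 regions of the Dppa4 and Dppa3 windows, with ratios of 2.42 and 2.69, and ticks are the other loci of the 8 windows. Both diamonds lie within the green distribution.

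H3K9me3 was listed near few of the 8 genes after vehicle, and after doxorubicin near a share like that of all genes. Within 20 kb, a region was listed at 2 genes after vehicle, Dppa3 and Dppa4, and at 5 after doxorubicin, while 55.2% and 61.2% of all protein-coding genes had one. Higher or doxorubicin-only calls numbered 4 of 8. Dppa3 was higher by at least 1.5, as were 12.9% of all genes, and Dppa2, Dppa5a and Lin28a were listed after doxorubicin alone, as were 8.78% of all genes. Lin28b, Utf1 and Tdgf1 had no H3K9me3 region in either treatment. None of the 8 was lower or listed after vehicle alone, with 0.882% and 2.78% of all genes in these classes. Over 11466 genes listed in both, the median ratio was 1.26, so the scaled H3K9me3 heights as a whole were higher after doxorubicin.

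The 8 windows held 13 H3K9me3 loci, of which 5 (38.5%) were listed after doxorubicin alone, 3 (23.1%) after vehicle alone and 1 was higher by at least 1.5. Over all 83355 H3K9me3 loci the shares were 32.2%, 11.3% and 16%, with 1.59% lower. The Dppa3 window carried the highest H3K9me3, from 122615311 to 122616509, between Gdf3 and Dppa3. The summit was 3.88 FPM (2.97 to 4.97) after vehicle and 6.04 (4.84 to 7.45) after doxorubicin, 62 and 87 fragments. The ratio was 1.56 (1.11 to 2.19), but the call of at least 1.5 was lost relative to the median of all genes, at 1.24, and on the fold enrichment of the authors, at 1.499. A longer region lay across the lower end of Dppa3 itself, from 122624668 to 122627458 after vehicle with 2.31 and from 122624714 to 122627775 after doxorubicin with 1.87. Its ratio was 0.810 (0.474 to 1.37). These 2 regions had ratios on opposite sides of 1, and of the pair the one outside the gene had an interval above 1. H3K27ac was also listed at the first in both treatments, with 0.726 and 0.646. At the region across the end of Dppa3 it was listed after vehicle alone, in separate loci with 0.775 and 0.533. The 3 genes with H3K9me3 after doxorubicin alone had 1.04 at Dppa2, 0.903 at Dppa5a and 0.972 at Lin28a, from 13 to 15 fragments each. All 3 regions lay more than 5000 bp from the gene. In the gene and 1 kb, Dppa3 was the only one of the 8 with listed H3K9me3.

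Genes that work with these 8 were followed in lists by function, in the gene and 1 kb, where rose and fell stand for a ratio past 1.5. The share of all protein-coding genes listed there was 64.2% after vehicle and 69.9% after doxorubicin. Of all protein-coding genes, 14.6% were higher and 6.13% lower by at least 1.5. A further 8.25% were listed after doxorubicin alone and 2.57% after vehicle alone. Core pluripotency factors regulate the stem cell state that the 8 genes are used to mark. These factors were listed with H3K27ac at 15 of 15 in both treatments, with a median log2 ratio of -0.49 beside 0.11 over all genes. Of the 15, 5 were lower by at least 1.5 and 1 was higher. The pluripotency factor gene Nanog fell from 5.86 to 2.52 FPM, Zfp42 from 6.68 to 3.29, Klf2 from 7.02 to 3.64, Tcl1 from 2.57 to 1.35 and Prdm14 from 2.57 to 1.41, while Klf5 rose from 3.15 to 5.81. Dppa5a and Tdgf1, at ratios of 0.768 and 1.03, stayed within the limits of 1.5.

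Of 25 genes of the Dux and 2-cell-like programme that Dppa2 and Dppa4 activate, its regulators included, 11 were listed with H3K27ac after vehicle and 13 after doxorubicin. All 11 listed after vehicle were regulators of the state, and none of the Dux and 2-cell genes themselves was. The median log2 ratio of 0.05 therefore describes regulators alone, not the genes that Dppa2 and Dppa4 activate. Duxf3, the Dux gene of the RefSeq table, was listed after doxorubicin alone with 0.646 FPM, and Usp17le, a 2-cell gene, after doxorubicin alone with 0.998. Duxf3 and Usp17le belong to multicopy families, in which reads are hard to place. The other 5 called genes encode repressors of the state. L3mbtl2, a Polycomb-related protein, rose from 1.55 to 4.40, and the chromatin assembly factor genes Chaf1a from 1.40 to 2.82 and Chaf1b from 1.40 to 2.41. Setdb1, an H3K9 methyltransferase, fell from 3.83 to 1.94, and its partner Trim28 from 3.29 to 2.11. A p53 region lay within 20 kb of 7 of the 25, beside 32.3% of all protein-coding genes.

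Partners and targets of Lin28a and Lin28b were listed at 16 of 17 after vehicle and 17 of 17 after doxorubicin, with a median log2 ratio of 0.24. The uridylyltransferases Tut4 and Tut7, which Lin28 proteins recruit to let-7 precursors, rose from 1.31 to 2.47 and from 1.36 to 2.58. Arid3a, a let-7 target, rose from 1.36 to 3.93, Igf2bp2, another target, fell from 3.63 to 1.53, and Myc was listed after doxorubicin alone with 0.646. Of the 20 genes of the Nodal pathway in which Tdgf1 works, 15 were listed after vehicle and 16 after doxorubicin, 6 were higher, 1 was lower, 2 were listed after doxorubicin alone and 1 after vehicle alone. The receptor genes Acvr2b and Acvr1b rose from 0.823 to 2.23 and from 0.969 to 2.47, and the feedback genes Skil and Smad7 from 1.31 to 2.11 and from 3.39 to 5.46. Smad4, the common mediator, fell from 2.13 to 1.35. Nodal itself had 5.47 and 4.87, with the median log2 ratio of the list at -0.09.

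Of 10 DNA methylation factors around Dppa3, 4 were higher, 2 were lower and 1 was listed after doxorubicin alone. Uhrf1, the methylation maintenance factor on which Dppa3 acts, fell from 7.07 to 3.76, and the demethylase gene Tet2 from 2.62 to 1.64. Tet3 rose from 1.11 to 3.05, the methyltransferase genes Dnmt3a from 1.02 to 2.00 and Dnmt1 from 2.03 to 3.23, and the cofactor Dnmt3l from 1.02 to 1.94. Dnmt3b was listed after doxorubicin alone with 1.06. The median log2 ratio over the 9 listed in both was -0.31, on the other side of 0 from the majority of the calls. A p53 region lay within 20 kb of 6 of the 15 pluripotency factors and 8 of the 17 Lin28 partners and targets. The same held for 5 of the 20 Nodal pathway genes and 4 of the 10 methylation factors. Nothing particular to a list is drawn from these counts.

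By likeness over the 4 histone lists, measured as Euclidean distance of log2 heights plus 0.1 in the gene and 1 kb, the genes nearest to Dppa2 were Gna12 and Btbd2, and those nearest to Lin28a were Inha and Bmyc. Stk11ip and Prc1 were nearest to Utf1, Sart3 and Iscu to Dppa5a, Usp48 and Fam71e2 to Tdgf1, and Pip4k2a and Rgcc to Dppa3. The distance was 0 at the first 3, which share the same whole fragment numbers, and 0.02 to 0.06 for Dppa5a and Tdgf1. For Dppa3 it was 0.40 and 0.41. Where more genes tied, the first in table order were named.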

How the data were processed

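ChIP-seq of 14 libraries in 7 groups of 2 was available as 1 region list per group. The submitters' processing notes name Bowtie2 2.2.6 for alignment. Per the file headers, the build was mm10 plus 1 extra contig, and MACS 2.2.5 called regions from paired-end fragments of both libraries of a group together, keeping 1 fragment for each position at a q cutoff of 0.05. The headers also show that the histone and input lists were called without control and the untagged list against input, in each case with only the genome-wide background. The p53 call used input and MACS's local background. The deposited signal is the fragment pileup at each summit, beside a −log10 q value and a fold enrichment, all computed by the authors.

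Pileup was divided by the fragments kept in the list, as the file headers give them, and multiplied by 1000000 (FPM). HA pileup, which MACS had scaled to the input, was divided by the input fragments. The highest summit in the gene and 1000 bp (H3K27ac) or 20000 bp (H3K9me3, p53) was compared as doxorubicin over vehicle and called at a fold of 1.5 or when listed in 1 treatment alone. Ratios carry 95% conditional binomial (Clopper-Pearson) intervals and levels 95% Poisson intervals, which cover counting error only. Regions overlapping by at least 1 bp were joined into loci. Gene coordinates and promoters came from RefSeq tables of GRCm38.p6. The gene table gives no strand, so gene ends are called lower and upper by coordinate. Named genes were the 8 genes, genes with an end within 1000 bp of a listed region in a window, up to 6 called genes per functional list by largest log2 ratio, and the 2 nearest patterns per gene, except 1 gene that is not reported here. The 8 genes and all lists were chosen with earlier results of these data known. No replicate values exist in the lists, so no test was run. Both p53 titles carry the same replicate number, and numbers there only name the libraries. Alternatives covered windows, scaling, fold, q, input and untagged regions, and the sum of summits. Counting was checked on simulated lists and against bedtools 2.31.1. Python 3.11.15, numpy 2.4.6, pandas 2.3.3, scipy 1.17.1 and matplotlib 3.10.9 were used.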

Additional observations from a re-analysis of the deposited data

How the results depend on the processing

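No paired analysis was possible because replicates were pooled before calling, and for the same reason leaving out a library was not run. Depth limits the low summits, which rest on few fragments. The number of genes with more H3K27ac after doxorubicin, 2 as reported, was 1 in the gene body alone, where the Dppa2 ratio reversed to 0.866, and 1 at a fold of 2, with Dppa4 left in both cases, and 3 within 5000 bp and within 20000 bp, where Lin28b was added. The number with less, 0 as reported, was 1 within 5000 bp (Dppa3), 1 within 20000 bp (Dppa5a), 1 at a call threshold under 1.5 (Dppa5a) and 1 by the sum of summits (Dppa3, ratio 0.232). The number with more H3K9me3, 4 as reported, was 0 in the gene body, 0 within 1000 bp and 0 within 5000 bp, since the regions lie farther out. There the Dppa3 ratio reversed to 0.882, 0.882 and 0.810, which is the region at the gene itself. The count was 3, with the Dppa3 call lost, when centred on the median of all genes (Dppa3 ratio 1.24), on the authors' fold enrichment (1.499) and at a fold of 2. The number of genes with a p53 region, 2 within 20000 bp, was 0 within 1000 bp and 0 within 5000 bp and 5 within 50000 bp, where Dppa2, Dppa5a and Utf1 were added. Of 47 recomputed counts, 35 stayed within 1.5 times the reported count, the changes from 2 to 3 and from 4 to 3 above among them. Of the recomputed ratios, 64 of 70 stayed within the counting interval of the reported ratio. Of the 70, 16 fell on the other side of 1 from the reported ratio, 6 of them at Tdgf1 (lowest 0.787), 4 at Lin28a (lowest 0.922), 3 at Dppa3 in H3K9me3, and 1 each at Dppa2, Utf1 (1.016) and Dppa4 in H3K9me3 (0.959). A common floor of 0.5 FPM, chosen after seeing the data, changed no count.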

Other observations

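The let-7 microRNA genes, whose processing Lin28a and Lin28b block, were looked at in the same way, as a group chosen outside the lists above. Of 11 let-7 genes in the RefSeq table, 2 had H3K27ac within 1 kb after vehicle and 3 after doxorubicin, where 64.2% and 69.9% of protein-coding genes had it. Mirlet7g had 1.21 FPM after vehicle and 0.822 after doxorubicin, Mirlet7i had 1.07 and 1.29, and Mirlet7c-2 was listed after doxorubicin alone with 0.470, the lowest height in that list. None of the 11 had a listed H3K9me3 region within 1 kb. A p53 region lay within 20 kb of 2 of them, Mirlet7a-2 and Mirlet7e, beside 32.3% of protein-coding genes. Neither of the 2 had H3K27ac within 1 kb. All these windows include the gene itself, which is short for a microRNA gene. The shares of protein-coding genes, with longer windows, are therefore not a like-for-like comparison.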
